A study of Mus musculus with 6 samples.

Results

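The mir-322, mir-503 and mir-450 cluster is a group of 7 microRNA precursors that lie side by side on the mouse X chromosome. Its members were found by name in the deposited table, which lists 1006 precursor entries, and all 7 were present, namely mir-322, mir-503, mir-351, mir-542, mir-450a-2, mir-450a-1 and mir-450b. Small RNA from 6 libraries was sequenced. There were 2 libraries of extracellular vesicles (EVs) from C2C12 cells (Myo-EVs) and 2 of EVs from C2C12 cells kept under fluid flow shear stress (FFSS-Myo-EVs), and 1 library each of primary osteoblasts (OB) and primary bone marrow cells (BM). C2C12 is an established mouse myoblast line, so the vesicle libraries describe 1 line in culture, in medium with serum from which EVs had been removed. In the methods, shear was applied by an orbital shaker for 48 hr, whereas the growth protocol in the labels, the same for all 6 samples, does not mention shear and names vitamin D3 or dexamethasone as agents that were or were not added. The titles of the FFSS-Myo-EV samples name the shear stress, and what else, if anything, the cells received cannot be told from the labels. All 6 samples carry the same strain label, a mixed background of 81.25% C57BL/6J and 18.75% 129/SvJ, and each library was made from 90 ng of total RNA. The methods give this background for the mice and describe C2C12 as a line obtained from a cell collection. The label therefore need not hold for the vesicle libraries, and a shared background of vesicles and cells cannot be assumed. The labels give an age of 8 to 10 weeks for the mice behind OB and BM, whereas the methods describe osteoblasts pooled from the calvariae of several newborn mice. RNA of the C2C12 cells themselves was not analysed here. No source states whether the 2 libraries of a vesicle group came from separate cultures, so the p-values do not extend beyond these libraries.

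MicroRNAs are short RNAs that lower the output of messenger RNAs. They pair with them mainly through the seed, which is bases 2 to 8 counted from the 5′ end. A cluster such as this one is transcribed as a long primary RNA and cut into separate hairpins, and the hairpins give mature arms named 5p and 3p. The cluster is known for its induction when myoblasts stop dividing and form myotubes, where mir-322 (the mouse counterpart of human mir-424) and mir-503 act on the cell cycle phosphatase Cdc25A, and mir-351 is known to act on the cell cycle factor E2f3. Seed relatives of mir-322 are the mir-15 and mir-16 miRNAs, which are also known as brakes on the cell cycle.

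In the GRCm38 annotation of RefSeq, the build that mm10 corresponds to, the cluster spans 6353 bases of chromosome X, from 53047997 to 53054349 on the minus strand. The order in the direction of transcription is mir-322, mir-503, mir-351, mir-542, mir-450a-2, mir-450a-1 and mir-450b. The first 3 start within 996 bases, and a gap of 3767 bases follows. Beyond it, mir-542 lies 1035 bases from mir-450a-2, and the 3 mir-450 precursors lie 54 and 75 bases apart. RefSeq places mir-322, mir-503 and mir-351 inside the noncoding gene C430049B03Rik (53053112 to 53057190), and no host gene for the other 4. The GENCODE M21 annotation gives the same precursor positions and ends C430049B03Rik at 53055046, so that there all 7 lie outside other genes.

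The file counts reads per precursor and does not list the 5p and 3p arms apart. Mature sequences from RefSeq (GRCm38.p6) were matched for 7 of 7 members. The arms known as the guide strands are shown, because the members differ in their seeds and with them in the miRNAs they stand beside. Capitals mark the seed.
miR-322-5p: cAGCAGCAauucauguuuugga
miR-503-5p: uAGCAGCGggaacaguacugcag
miR-351-5p: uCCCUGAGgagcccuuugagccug
miR-542-3p: uGUGACAGauugauaacugaaa
miR-450a-5p (mir-450a-1 and mir-450a-2): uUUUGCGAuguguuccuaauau
miR-450b-5p: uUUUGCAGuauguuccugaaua

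Relatives outside the cluster that carry the seed of a member are shown for comparison.
miR-16-5p: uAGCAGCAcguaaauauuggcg
miR-125a-5p: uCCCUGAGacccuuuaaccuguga
miR-125b-5p: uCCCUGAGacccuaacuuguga

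The 7 members thus carry 6 different 5p or 3p guide sequences with 6 different seeds. The seed of miR-322-5p is the same as that of miR-16-5p at 7 of 7 bases, whereas that of miR-503-5p differs from it by A8G, with positions counted from 1 at the 5′ end. The seed of miR-351-5p is that of miR-125a-5p and miR-125b-5p, and the stretch they share with it from the 5′ end is 8 bases long. Between miR-450a-5p and miR-450b-5p, the seed differs by G7A and A8G. The mir-450a-1 and mir-450a-2 precursors give the same 5p sequence, and the 3p arms of mir-450a-1 and mir-450b share a stretch of 18 bases, so reads of these arms cannot be assigned to 1 precursor with certainty. The miR-450b-5p arm and the 3p arm of mir-450a-2 share no such stretch. The mature arms of mir-322, mir-503, mir-351 and mir-542 share no 18-base stretch with another mature miRNA of the RefSeq table.

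Values below are the authors' normalized expression values unless another unit is named. A normalized expression value is the count multiplied by 1 constant per library, and the total counts ranged from 2414132 in a Myo-EV library to 6092460 in BM. Members are compared per precursor entry, with the reads of both arms together. Values were not divided by length, since 1 read spans 1 arm (21 to 24 bases in the members). How well each sequence was ligated and amplified was not tested. OB and BM have 1 library each. Their 95% intervals are exact Clopper-Pearson intervals, which hold counting error alone and no spread between libraries. They treat reads as independent, which reads amplified by PCR and not tagged per molecule are not, so they can be too narrow.

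Together, the 7 members took 0.683% of all counts in OB (0.676 to 0.690), 0.0921% in BM (0.0897 to 0.0946), 0.541% and 0.556% in vesicles without FFSS and 0.313% and 0.313% in vesicles with FFSS. The share of the cluster was thus lowest in bone marrow cells, and it was lower in both FFSS-Myo-EV libraries than in both Myo-EV libraries. Without mir-351, the share of the other 6 members was 0.0933% and 0.104% in Myo-EVs against 0.0942% and 0.0915% in FFSS-Myo-EVs, and these overlapped. Fewer cells that express the cluster and less of these miRNAs per cell cannot be told apart in bulk RNA.

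The dominant member in vesicles was mir-351. Its normalized expression value was 12893.2 and 13087.0 without FFSS, 6603.8 and 6524.4 with FFSS, 6661.8 in OB (6544 to 6782) and 719.3 in BM (687 to 753). Both FFSS-Myo-EV libraries were far below both Myo-EV libraries and lay close to the osteoblast level. Among the 1006 entries, mir-351 ranked 25 and 26 without FFSS, 45 and 46 with FFSS, 52 in OB and 111 in BM.

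The member at the head of the cluster, mir-322, was highest in osteoblasts. It was 8342.3 in OB (8210 to 8476), 777.3 in BM (743 to 812), 839.2 and 1157.0 in vesicles without FFSS and 1092.8 and 1037.7 in vesicles with FFSS. Both FFSS-Myo-EV values fell between the Myo-EV values, so the vesicle groups overlapped. In OB, mir-322 ranked 42 of 1006 entries, against 108 to 118 in the 4 vesicle libraries.

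Next to mir-322 lies mir-503, which was 1195.6 in OB (1146 to 1247), 181.1 in BM (165 to 199), 481.8 and 509.0 in vesicles without FFSS and 426.4 and 392.1 in vesicles with FFSS. On the far side of the gap, mir-542, whose 3p arm is known to act on the survival factor survivin, was 2008.5 in OB (1944 to 2075), 264.5 in BM (245 to 285), 746.8 and 859.9 in vesicles without FFSS and 676.4 and 733.2 in vesicles with FFSS. For both, the FFSS-Myo-EV libraries were below the Myo-EV libraries without overlap, and by less than for mir-351.

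The mir-450 entries were the least abundant in all 6 libraries. The entry mir-450a-1 was 521.9 in OB, 102.5 in BM, 174.7 and 135.3 in vesicles without FFSS and 203.2 and 138.4 in vesicles with FFSS. The entry mir-450a-2, with the same 5p sequence, was 475.5 in OB, 95.3 in BM, 157.6 and 116.2 in vesicles without FFSS and 173.3 and 139.5 in vesicles with FFSS. The entry mir-450b was 341.8 in OB, 89.4 in BM, 288.1 and 224.0 in vesicles without FFSS and 272.0 and 250.3 in vesicles with FFSS. In each of the 3, the vesicle groups overlapped, and the 2 libraries of a group differed by more than the group means did.

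**Figure D1:**
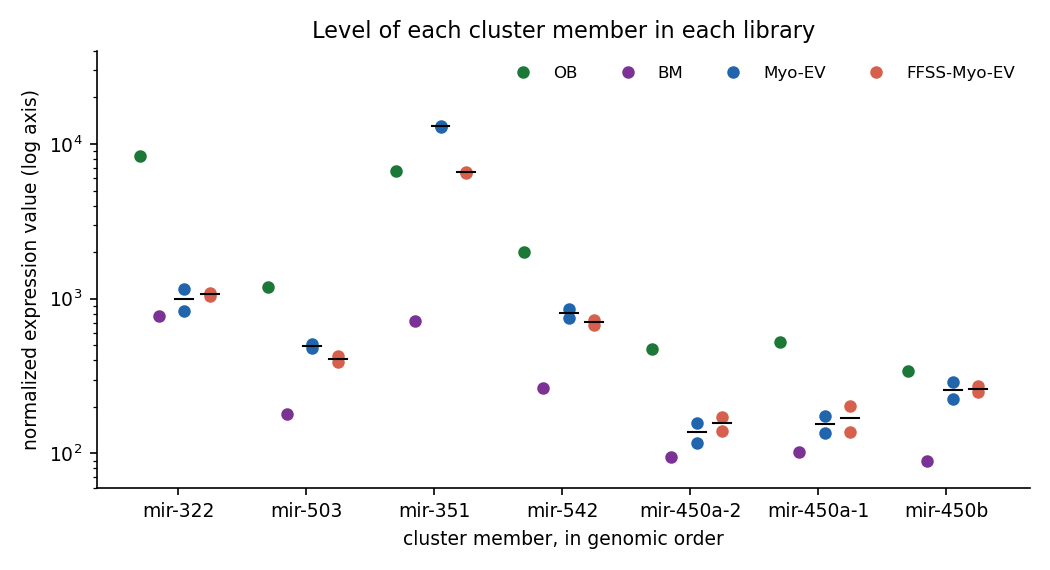
Normalized expression value (log axis) of each cluster member, in genomic order, in the OB, BM, Myo-EV and FFSS-Myo-EV libraries, with 1 point per library and a black line at the mean of each vesicle group. The mir-351 points of Myo-EVs lie at 12893.2 and 13087.0 and those of FFSS-Myo-EVs at 6603.8 and 6524.4, whereas OB is the highest library for the other 6 members.

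The order of the levels differed between cells and vesicles. In OB, it was mir-322, mir-351, mir-542, mir-503, mir-450a-1, mir-450a-2 and mir-450b, and the counting intervals of neighbours overlapped only for the mir-450a entries. In BM, the order was the same, with overlapping intervals for mir-322 and mir-351 and among the 3 mir-450 entries. In Myo-EVs and FFSS-Myo-EVs alike, the order of the means was mir-351, mir-322, mir-542, mir-503, mir-450b, mir-450a-1 and mir-450a-2. The values of mir-322 and mir-542 overlapped in Myo-EVs and not in FFSS-Myo-EVs, although mir-322 had more counts than mir-542 in each of the 4 vesicle libraries. The mir-450a entries overlapped in both vesicle groups.

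To compare the mates without any scaling between libraries, the counts of each member were divided by the sum over the 7 members in the same library. The share of mir-351 was 34.1% in OB (33.6 to 34.6) and 32.3% in BM (31.0 to 33.5), against 82.0% ± 0.99 (SD, n = 2) in Myo-EVs and 70.3% ± 0.64 (SD, n = 2) in FFSS-Myo-EVs. The share of mir-322 was 42.7% in OB, 34.9% in BM, 6.29% ± 1.28 (SD, n = 2) in Myo-EVs and 11.4% ± 0.22 (SD, n = 2) in FFSS-Myo-EVs. In OB and BM, mir-322 and mir-351 thus led the cluster together, whereas in vesicles mir-351 alone gave most of the counts. With the mir-450a entries counted once, the share of mir-351 in FFSS-Myo-EVs was 71.6%.

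**Figure D2:**
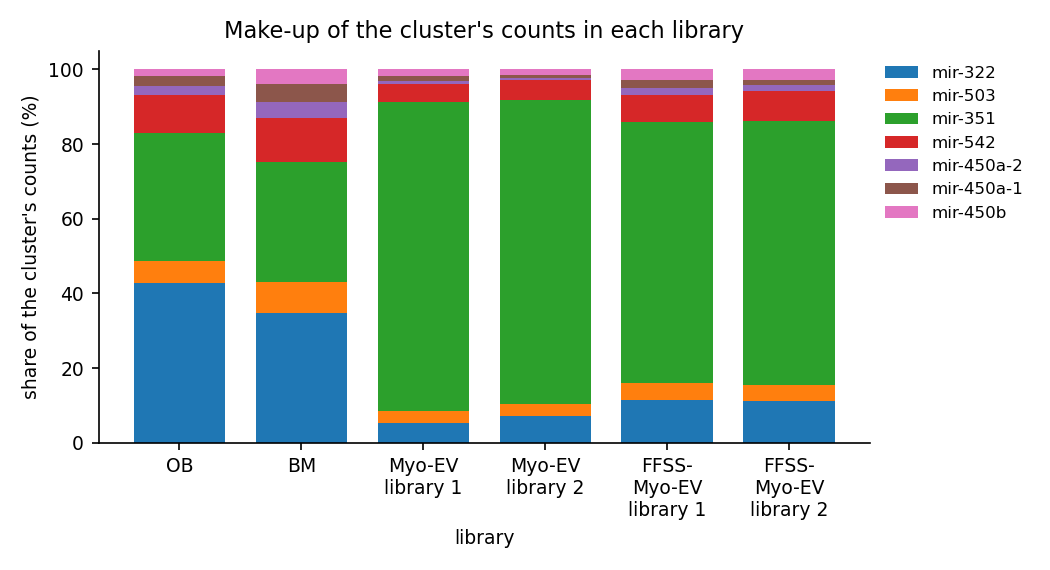
Share of the cluster's counts (%) taken by each of the 7 members in each of the 6 libraries. The mir-351 part is 34.1% in OB and 32.3% in BM, and between 69.9% and 82.7% in the vesicle libraries.

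The ratio of mir-351 to mir-322 in the same library was 0.799 in OB, 0.925 in BM, 15.4 and 11.3 in vesicles without FFSS and 6.04 and 6.29 in vesicles with FFSS. Against each of its 6 mates, mir-351 was lower in both FFSS-Myo-EV libraries than in both Myo-EV libraries, with differences of the mean log2 ratio from -1.19 (mir-450a-2) to -0.71 (mir-503). A two-sided exact permutation test gave p = 0.33 for each of these 6 ratios, also after adjustment, which is the smallest p that 2 libraries against 2 allow. These ratios share the mir-351 counts and are not independent of each other.

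Between the vesicle groups, the ratios among the other members moved less. The ratio of mir-503 to mir-542, the members on either side of mir-351, was 0.595 in OB, 0.685 in BM, 0.645 and 0.592 in vesicles without FFSS and 0.630 and 0.535 in vesicles with FFSS. It thus held within a narrow range in cells and vesicles, across 6 libraries in which the levels of both varied several-fold. In contrast, the ratio of mir-322 to mir-503, which lie 200 bases apart, was 6.98 in OB, 4.29 in BM and between 1.74 and 2.65 in the vesicle libraries.

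Whether FFSS changed the members in vesicles was tested with edgeR (quasi-likelihood test on the counts, TMM scaling, Benjamini-Hochberg adjustment). All 354 entries whose normalized expression value averaged 10 or more over the 4 vesicle libraries entered the fit, the 7 members included. The fit had 2 residual and infinite prior degrees of freedom. Its p-values and intervals thus rest on a spread pooled over the entries, not on that of each entry alone. Of the 7, 2 passed an adjusted p of 0.05 (mir-351 and mir-503), against 30.5% of all entries. Both were lower in FFSS-Myo-EVs, as were 65 of all entries (18.4%), and no member was higher, against 43 (12.1%). With the authors' scaling, 39 entries were lower and 54 were higher. The number called was 44 without the first and 45 without the second FFSS-Myo-EV library, against 108 with all 4. The median log2 fold change was -0.10 over the members, 5 of which were below 0, and -0.02 over the 354 entries. With the authors' scaling, 3 members were below 0 and the medians were 0.03 over the members and 0.09 over the entries.

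The log2 fold change of mir-351 was -1.11 (standard error, SE, 0.15, edgeR quasi-likelihood adjusted p = 2.58e-12), with a 95% interval from -1.40 to -0.82. It ranked 19 from the lowest of the 354 entries. It was called in 13 of 13 alternative analyses, with values from -1.17 to -0.98 and an adjusted p of at most 0.00185 in edgeR, DESeq2 and limma, and stayed between -1.17 and -1.02 when each vesicle library was left out in turn.

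For mir-503, the log2 fold change was -0.40 (SE 0.15, edgeR quasi-likelihood adjusted p = 0.0284). The call was kept in 5 of 13 alternatives. It was lost on the authors' scaling (adjusted p = 0.241 in edgeR), with DESeq2 (0.0989) and with limma (0.273), and without the second Myo-EV library (0.0789), the first FFSS-Myo-EV library (0.129) or the second (0.615).

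For mir-542, the log2 fold change was -0.31 (SE 0.13, edgeR quasi-likelihood adjusted p = 0.0555), just short of the threshold. It was called in 2 of 13 alternatives, namely without the first Myo-EV library (adjusted p = 0.0309 in edgeR) and when the minimum mean was raised to 100 (0.0475). On the authors' scaling, on counts per 1000000 and on TMM-scaled values alike, the vesicle groups did not overlap for 3 of the 7 members, mir-503, mir-351 and mir-542, all lower in FFSS-Myo-EVs, against 23.7%, 27.7% and 32.5% of all entries on these 3 scales. No member was higher without overlap, against 36.7%, 31.4% and 26% of all entries.

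The 4 other members did not pass the test. The log2 fold change of mir-322 was -0.02, with a 95% interval from -0.27 to 0.23, and 0.10 on the authors' scaling. That of mir-450b was -0.10 (-0.46 to 0.25), and 0.03 on the authors' scaling. The mir-450a entries had values of 0.06 (-0.39 to 0.51) and 0.02 (-0.42 to 0.45). The value of mir-351 lay below all 4 of these intervals, which leave room for a smaller change in either direction.

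**Figure D3:**
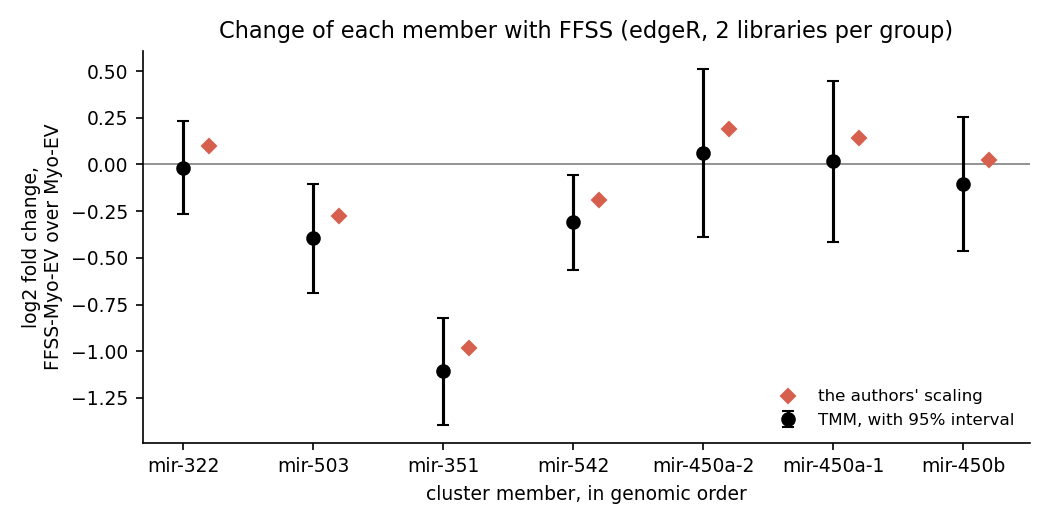
Log2 fold change of each cluster member in FFSS-Myo-EVs over Myo-EVs. Black points are from edgeR after TMM scaling, with 95% intervals derived from its F statistic, and red diamonds are for the authors' scaling. The mir-351 interval runs from -1.40 to -0.82 and lies below those of the other 6 members, and the points of mir-322 and mir-450b change sign with the scaling.

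Levels in vesicles were then set beside those in the 2 cell samples. In OB, 5 of the 7 members were at least 2 times the mean of the 4 vesicle libraries, against 36.1% of the 443 entries with a mean of at least 10 over the 6 libraries, and none was at most 0.5 times that mean, against 35.7%. OB was above all 4 vesicle libraries in 6 of 7 members, against 45.4% of entries. The ratio of OB to the vesicle mean was 8.09 for mir-322, 3.24 and 3.20 for mir-450a-2 and mir-450a-1, 2.66 for mir-542, 2.64 for mir-503, 1.32 for mir-450b and 0.681 for mir-351. The exception was mir-351, for which OB was 0.513 times the Myo-EV mean and 1.01 times the FFSS-Myo-EV mean. With median-of-ratios scaling of the 6 libraries, these values were 0.629 and 1.34.

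In BM, 4 of the 7 members were at most 0.5 times the vesicle mean, against 42.9% of entries, and none was at least 2 times it, against 40.2%. BM was below all 4 vesicle libraries in 7 of 7, against 43.6%. The ratio of the vesicle mean to BM was 13.6 for mir-351, from 2.50 to 2.89 for mir-503, mir-542 and mir-450b, and from 1.33 to 1.59 for mir-322 and the mir-450a entries. On counts per 1000000, mir-322 in BM (321) was above the lowest vesicle library (291), and 6 members remained below all 4.

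Between the cells, each of the 7 members was at least 2 times higher in OB than in BM, against 34.3% of entries. The ratio was highest at the head of the cluster, with 10.7 for mir-322 (10.2 to 11.3), and lowest at its end, with 3.82 for mir-450b (3.28 to 4.48). In between it was 6.60 for mir-503, 9.26 for mir-351, 7.59 for mir-542, 4.99 for mir-450a-2 and 5.09 for mir-450a-1. It did not decline step by step along the cluster, since mir-503 was below mir-351 and mir-542. Over 3 scalings, the ratios stayed between 3.23 and 12.5. They rest on 1 library of each cell and could not be set against replicates.

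**Figure D4:**
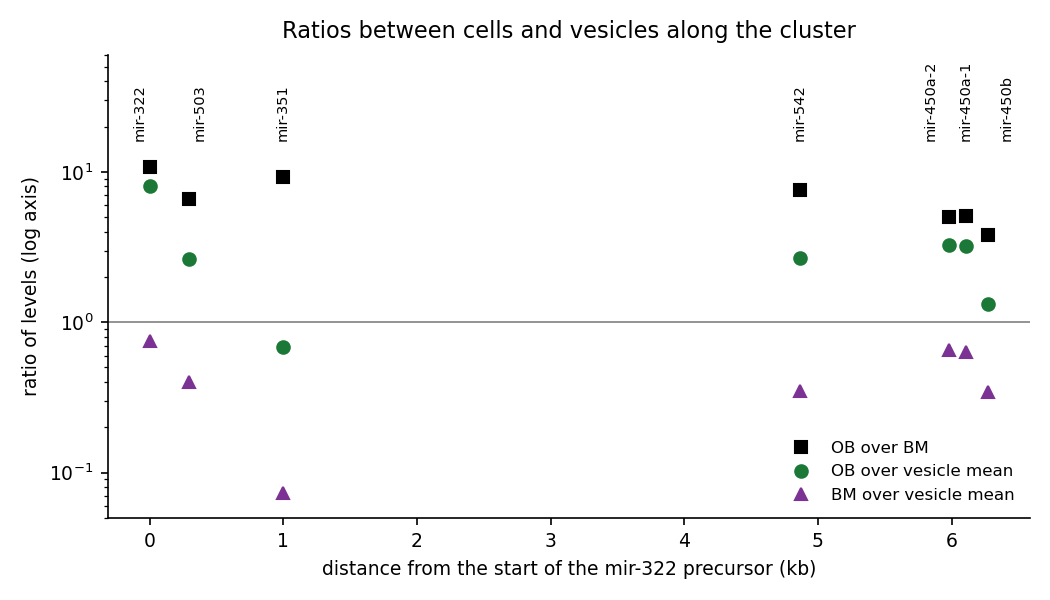
Ratio of levels (log axis) of OB over BM (squares), OB over the vesicle mean (circles) and BM over the vesicle mean (triangles) for each member, against the distance in kb from the start of the mir-322 precursor. The squares lie between 3.82 and 10.7, and mir-351 has the lowest circle (0.681) and the lowest triangle.

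The labelled cells were checked against marker miRNAs. The summed value of the 5 listed blood cell miRNAs (mir-223, mir-142a, mir-150, mir-451a and mir-144) was 20348 in BM and 175.7 in OB. That of 5 osteoblast and mesenchymal miRNAs (mir-199a-1, mir-199a-2, mir-214, mir-143 and mir-145a) was 469574 in OB, 20791 in BM and from 326803 to 428560 in the 4 vesicle libraries. This list thus set OB apart from BM and not from the vesicles, in which mir-143 averaged 321551 against 269506 in OB. All 5 entered the test and none was called, against 30.5% of all entries. Their median log2 fold change was -0.07, with a range from -0.24 (mir-145a) to 0.33 (mir-199a-1). Both mir-199a entries were higher in FFSS-Myo-EVs without overlap, as were 36.7% of all entries. The entry mir-145a was lower without overlap, as were 23.7%, and the vesicle groups overlapped for mir-214 and mir-143. The mir-199a entries had 11281 and 11319 counts in the first Myo-EV library. Whether the same reads were counted for both was not tested.

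The blood cell sum in vesicles was 15 and 10.8 without FFSS against 50.9 and 43.2 with FFSS. Both FFSS-Myo-EV libraries were higher for mir-223, mir-142a and mir-451a but not for mir-150 and mir-144, against 36.7% of all 354 tested entries. Counts were low, at 1 and 0 without FFSS and 7 and 5 with FFSS for mir-223. For mir-142a they were 4 and 1 without FFSS and 7 and 8 with FFSS. The value of mir-451a was 3.0 and 4.8 without FFSS and that of the liver miRNA mir-122 was 6.0 and 4.8, against means of 21.8 and 16.7 with FFSS. Both miRNAs reached the minimum mean of 10 only through the FFSS-Myo-EVs, in which they were high, so their log2 fold changes of 2.36 and 1.47 are given without a test. The part of these miRNAs in the fall of mir-351 and mir-503 was not tested.

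Of 11 listed muscle miRNAs, mir-206 was the most abundant in vesicles, at 1968.5 and 2365.4 without FFSS against 2610.0 and 2604.9 with FFSS, beside 91.7 in OB and 7.9 in BM. Its log2 fold change was 0.15 (edgeR quasi-likelihood adjusted p = 0.420). The 3 mir-133 entries were also higher in the vesicle mean than in either cell. The other 7 were not, since mir-1b was 370.6 in OB against a vesicle mean of 3.53, mir-1a-1, mir-1a-2 and mir-499 were lower in the vesicle mean than in OB, mir-208b had 1 count in OB and none elsewhere, and mir-486a and mir-486b were highest in BM. In the 4 vesicle libraries, mir-1a-1 had 0 counts, where 3 counts correspond to a value between 2.99 and 3.59. Among the mir-133 entries, mir-133a-1 and mir-133a-2 averaged 7.2 and 5.2 in FFSS-Myo-EVs alone, below OB at 9.4 and 8.3.

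Of the muscle list, 6 entries reached the minimum mean, and 3 of these were called lower in FFSS-Myo-EVs, against 18.4% of all entries. Of the 3, mir-133a-1 and mir-133a-2 reached it only through the Myo-EVs, in which they were high (means of 19.2 and 18.8, against 7.20 and 5.20 with FFSS), so their count supports nothing. For mir-133b, the mean was 40.6 in Myo-EVs and 13.1 in FFSS-Myo-EVs, with a log2 fold change of -1.75 (edgeR quasi-likelihood adjusted p = 0.000139). The mir-133 miRNAs are known to promote the proliferation or differentiation of myoblasts, and these entries rest on 4 to 45 counts per library.

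Members were then placed among their seed relatives. No other gene of the RefSeq table carries the seed of miR-503-5p. Of 8 listed entries related to mir-322 and mir-503 (the mir-15, mir-16, mir-195 and mir-497 entries), 6 were tested and none was called in either direction, with log2 fold changes from -0.07 (mir-16-1) to 0.47 (mir-497a) and a median of 0.09. The share of mir-322 was taken among 8 entries with a mature arm that RefSeq gives the seed AGCAGCA, mir-322 included. Of their counts, mir-322 gave 74.5% in OB (73.9 to 75.1) and 9.10% in BM (8.72 to 9.50). In vesicles, it gave 26.6% and 28.8% without FFSS and 29.0% and 25.1% with FFSS. The leading carrier of this seed was thus mir-322 in osteoblasts, whereas mir-16-1 was 3454.3 in BM against 777.3 for mir-322. The vesicle groups overlapped in this share. Both mir-16-1 and mir-16-2, with 8697 and 7716 counts in BM, enter the counts of the 8 entries. Whether the same reads were counted for both was not tested. If they were, the shares of mir-322 are too low.

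The seed CCCUGAG of mir-351 was carried mostly by the mir-125 entries. The value of mir-125a was 60723.6 and 53944.6 without FFSS, 44177.5 and 42061.2 with FFSS, 6375.7 in OB and 575.1 in BM. Of the 3 mir-125 entries, mir-125a fell, with a log2 fold change of -0.54 (SE 0.19, edgeR quasi-likelihood adjusted p = 0.0163), and its call was lost without the first (adjusted p = 0.216) or the second FFSS-Myo-EV library (0.446). For mir-125b-1 and mir-125b-2, which give the same 5p sequence, the values were -0.19 and -0.20 and did not pass, and the median of the 3 was -0.20.

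Of the summed counts of these 4 entries, mir-351 gave 11.9% and 13.4% without FFSS, 8.08% and 8.16% with FFSS, 10.7% in OB and 13.8% in BM. Its share was lower in both FFSS-Myo-EV libraries than in each of the other 4. The summed normalized expression value of the 4 entries was 102879 ± 7313 (SD, n = 2) in Myo-EVs and 80812 ± 1270 (SD, n = 2) in FFSS-Myo-EVs, beside 62310 in OB and 5217 in BM. Reads of both arms enter these sums, since the file does not separate them. The sums hold mir-125b-1 and mir-125b-2, which share a mature sequence and had 17652 and 16650 counts in the first Myo-EV library. Whether the same reads were counted for both entries was not tested. If they were, these sums are too high and the shares of mir-351 too low. Other entries with either seed had at most 3 counts in any library.

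**Figure D5:**
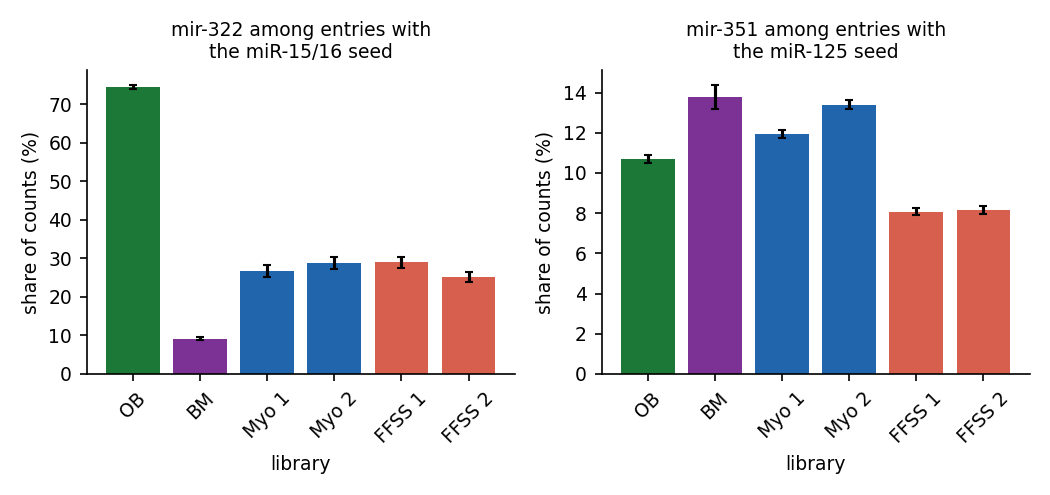
Share (%) of the counts of all listed entries with the same guide-strand seed that came from mir-322 (left, 8 entries) or mir-351 (right, 4 entries) in each library, with 95% Clopper-Pearson intervals for counting error. The mir-322 bar is 74.5% in OB and 9.10% in BM, and the mir-351 bars of FFSS-Myo-EVs (8.08% and 8.16%) are the lowest of the 6. Each entry is counted in full, including mir-125b-1 and mir-125b-2, which share a mature sequence.

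Likeness to the cluster was measured as the root-mean-square difference, on the log2 scale over the 6 libraries, from the mean centred profile of the 7 members. Among the members, which make up this profile, the distance was 0.080 for mir-503, 0.13 for mir-542, from 0.34 to 0.35 for the mir-450 entries, 0.69 for mir-322 and 1.03 for mir-351. Of 239 other entries with a mean of at least 100, the 5 nearest were mir-218-1 (0.39), mir-218-2 (0.43), mir-296 (0.45), mir-301a (0.46) and mir-152 (0.48). The nearest, mir-218-1, was 437.9 in OB, 86.6 in BM, 138.5 and 104.2 in vesicles without FFSS and 123.5 and 108.5 in vesicles with FFSS. The distance of mir-351 and that of mir-322 were larger than those of these 5 outside entries.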

How the data were processed

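Small RNA of 6 libraries was analysed from 1 deposited table. In CLC Genomics Workbench, the authors collapsed identical reads and annotated them with miRBase, and whole-number counts per precursor entry were deposited. They also deposited a normalized expression value, a signal made from the counts by conversion to a total of 1000000 and scaling with means (trimming percentage 5), which amounts to 1 constant per library. The processing notes name mm10. The miRBase release and the mismatches allowed are not given in the sources used here.

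Members were found by name. Members and lists were chosen with earlier results of these data known. Besides the members, named entries are those of 6 lists (seed relatives of mir-322 and of mir-351, muscle, blood cell, liver and osteoblast miRNAs) and the 5 entries nearest to the cluster's profile of log2 values (pseudocount 1). Replicate libraries differed by more than sampling noise (chi-square per degree of freedom 113 in Myo-EVs and 20.5 in FFSS-Myo-EVs). Counts were tested with edgeR 4.0.16 in R 4.3.3 (TMM, library totals, quasi-likelihood, Benjamini-Hochberg, 2 residual degrees of freedom, common dispersion 0.0108, infinite prior degrees of freedom). The test was also run on simulated counts that gave all entries this 1 common dispersion. That run shares the assumption of the fit, so it cannot show whether the p-values hold for these libraries. Alternatives were limma 3.58.1, DESeq2 1.42.0, other scalings and filters, the replicate block, and each vesicle library left out. Python 3.11.15 and scipy 1.17.1 gave intervals and exact permutation tests. Sequences and positions came from RefSeq and GENCODE M21 (GRCm38).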

Additional observations from a re-analysis of the deposited data

How the results depend on the processing

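The call of mir-351 held under all 13 alternatives. The number of members called, 2, was 1 (mir-351) with library totals, the authors' scaling, DESeq2 and limma with either pseudocount, was 3 (with mir-542) when the minimum mean was raised to 100, and ranged from 1 to 3 when each vesicle library was left out in turn. The number of entries called, 108, ranged from 44 to 132 over the same omissions. The value of mir-322, near 0, turned positive with median-of-ratios size factors (0.0055), library totals (0.050), the authors' scaling (0.096), a mean of at least 100 (0.026), DESeq2 (0.0049) and limma with pseudocounts of 1 and 10 (0.11 and 0.11), and ranged from -0.18 to 0.26 with each library left out. That of mir-450b turned positive with the authors' scaling (0.025) and limma (0.038 and 0.037) and ranged from -0.22 to 0.16 with each library left out. That of mir-450a-1 was -0.037 with no filter and ranged from -0.35 to 0.34, and that of mir-450a-2 from -0.16 to 0.37, with each library left out. For these reversals the cause was not tested. Where a library was left out, the lone library was assumed to vary like the other group. Counting the mir-450a entries once gave mir-351 71.6% of the cluster's counts in FFSS-Myo-EVs, since fewer counts enter the sum.

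No source says that libraries of the same replicate number belong together, and the differences between replicates correlated at 0.21 between the groups over 354 entries. With the replicate number as a block, 110 entries and 2 members were called, no member's call changed, and the log2 fold change of mir-351 was -1.11. Low counts limit the mir-450 entries, which rest on 97 to 287 counts per vesicle library.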
